A study of Mus musculus with 8 samples.

Results

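The mouse mitochondrial genome carries 37 genes, and all 37 were found among the 48328 genes of the deposited table. They were chosen by position: every Ensembl gene placed on the mitochondrial chromosome by GENCODE M21 (build GRCm38). The set holds 2 rRNA genes, 22 tRNA genes and 13 mRNA genes. Total RNA of the tibialis anterior, a shin muscle made mostly of fast fibres, was sequenced with a stranded kit in 8 libraries of C57BL/6J mice aged 24 months. There were 4 K320E-skm libraries, from mice whose skeletal muscle carries the K320E mutant of Twinkle, which unwinds mitochondrial DNA for its replication, and 4 wild-type libraries. Both genotypes share the strain, the tissue and the age, and each holds 2 libraries labelled male and 2 labelled female. The labels do not name the Cre line or promoter behind K320E-skm. The question addressed was whether RNA from the mitochondrial genome, whose copying depends on Twinkle, differs in level or in balance between old mutant and old wild-type muscle.

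Mitochondrial DNA is a small circle that is transcribed from both strands into long precursors. The heavy-strand promoter transcript (annotated on the + strand) carries both rRNAs, most mRNAs and most tRNAs. The light-strand promoter transcript (annotated on the − strand) carries mt-Nd6 and the remaining tRNAs. tRNAs stand between most of the other genes, and their excision frees the rRNAs and mRNAs. The rRNAs form the core of the mitochondrial ribosome, and the mRNAs encode subunits of respiratory complexes I, III, IV and of the ATP synthase, complex V. Deletions of this genome typically remove parts of the major arc, the longer stretch between the replication origins, and spare the minor arc, which holds the rRNAs, mt-Nd1 and mt-Nd2.

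Levels are given as FPKM, fragments scaled to transcript length and to the mapped fragments of the library, as deposited. The libraries summed to between 731824 and 858029 FPKM, with 10167 to 11581 genes at 1 FPKM or more. The table gives no read totals, so the absolute depth is unknown. Muscle markers were present: 7 of 8 fibre genes in the table were above 0 in every library, Myh4 being listed at 0 in some, and the 8 summed to 26186 to 33515 FPKM in K320E-skm and 32544 to 37575 FPKM in wild-type libraries. Summed markers of oxidative and slow fibres (74.5 to 420 against 119 to 277 FPKM), macrophages (16.6 to 42.4 against 14.5 to 46.2) and red blood cells (133 to 278 against 222 to 370) overlapped between the genotypes. So did those of adipocytes (6.10 to 11.2 against 2.67 to 43.0), Schwann cells (9.86 to 12.6 against 11.0 to 21.3), endothelium (28.3 to 35.5 against 32.1 to 41.9) and fibroblasts (175 to 275 against 161 to 453). The last 4 lists and that of red blood cells had lower means in K320E-skm, with median log2 fold changes of −0.81 over 3 tested adipocyte genes, −0.29 for Schwann cells, −0.13 for endothelium, −0.24 for fibroblasts and −0.43 for red blood cells, and 0 genes called by limma. The fibre genes had a median of −0.24, with 7 of 8 lower. Medians were higher for oxidative and slow fibres, at 0.28 with 6 of 7 genes higher, and for macrophages, at 0.14 with 6 of 6 higher. Limma called 0 genes in these 3 lists as well, and the median over all tested genes was −0.14. In all 7 lists other than the fibre genes, every gene was above 0 in all libraries. The part of all these lists in the results below was not tested. K320E-skm 4, labelled male, had 10.2 FPKM of the female-specific Xist and 0.0117 FPKM of the Y-linked Ddx3y, against its label, so values without it are given where they differ. In bulk muscle, fewer fibres, fewer mitochondria and less RNA per mitochondrion cannot be told apart.

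Several of these genes have near-identical copies in the nuclear genome. A run of 7 annotated pseudogenes on chromosome 1, 24611535 to 24616197, repeats the stretch from the end of mt-Co1 into mt-Nd4 at 99.7 to 100% identity. Of these, 5 span at least 95% of a mitochondrial mRNA. The genes so copied were mt-Co2 (copy Gm28661, 681 of 684 bases), mt-Atp6 (Gm10925, 678 of 681), mt-Co3 (Gm28437, 783 of 784), mt-Nd3 (Gm28438, 345 of 348) and mt-Nd4l (Gm10222, 294 of 297). The first 60 bases of mt-Co2, chrM:7013-7072, are shown beside this copy and beside an older copy on chromosome 2, Gm13341, that matches at 95.9%; capitals mark bases that differ from mt-Co2, and all 3 come from the GENCODE M21 transcripts.
mt-Co2: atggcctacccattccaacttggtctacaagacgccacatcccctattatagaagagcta
Gm28661: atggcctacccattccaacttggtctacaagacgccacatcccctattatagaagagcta
Gm13341: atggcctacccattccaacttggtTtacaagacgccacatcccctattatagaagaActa

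Those 5 mRNAs were the 5 lowest of the 13. Their values lay between 0.291 and 105 FPKM over all libraries, and the other 8 mRNAs between 959 and 22214 FPKM. mt-Co2 averaged 1.13 FPKM over the 8 libraries, although it encodes a core subunit of the same enzyme as mt-Co1, which averaged 14413 FPKM. The copies were low as well: Gm28661 averaged 0.867 FPKM and reached 2.06 FPKM. Gm28437 and Gm28438 reached 2.22 and 1.77 FPKM, and the older chromosome 2 copies Gm13340, of mt-Co1, and Gm13341 reached 4.22 and 2.51 FPKM. Gm29216, which repeats 483 bases of mt-Co1, stood apart at 131 to 545 FPKM. mt-Co1 and mt-Nd4 are copied at this identity over 31.3% and 63.6% of their length, and their lowest libraries were at 9810 and 1304 FPKM. mt-Atp8 has no annotated copy by this rule, but the 233 bases between Gm28661 and Gm10925 equal the distance between their partners, the stretch that holds mt-Atp8. No source used here says how fragments that match both places were treated, and the part of the copies in these low values was not tested. Values that involve these 5 mRNAs, ratios included, carry this limit. Those of mt-Co1 and mt-Nd4, which are copied over part of their length, may carry it as well, which was not tested.

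**Figure D1:**
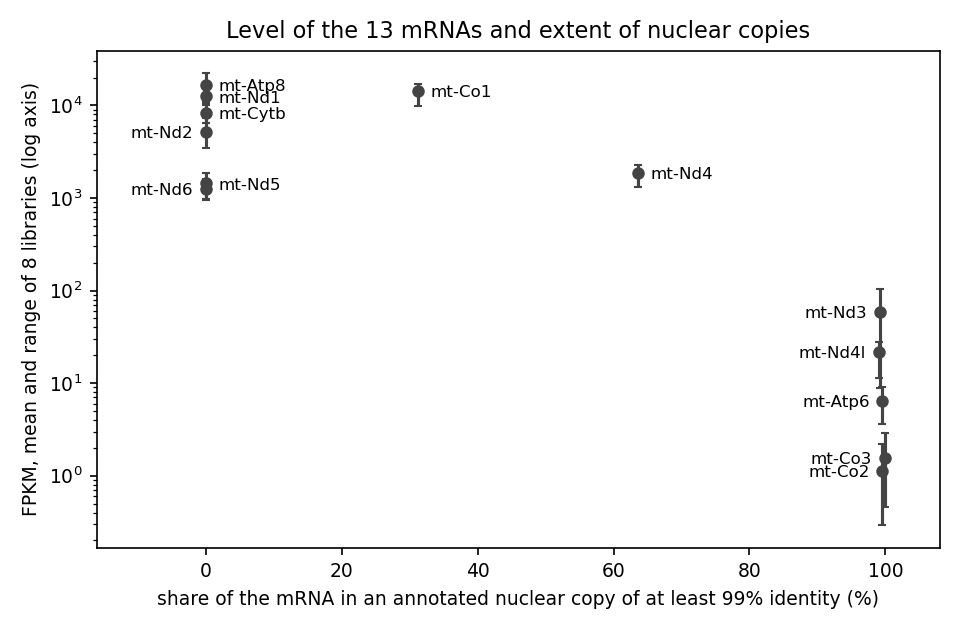
Each point is 1 of the 13 mitochondrial mRNAs, with its mean FPKM over 8 libraries on a log axis, bars from the lowest to the highest library, and on the horizontal axis the percent of its length in an annotated nuclear copy of at least 99% identity. The 5 mRNAs at the right reach at most 105 FPKM, and the other 8 are at 959 FPKM or more.

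The rRNAs were the most abundant genes of the table. mt-Rnr2, the large ribosomal RNA (chrM:1094-2675, + strand), measured 291021, 255723, 266385 and 227876 FPKM in K320E-skm 1 to 4, against 195008, 205436, 238653 and 232954 FPKM in wild-type 1 to 4. K320E-skm libraries 1 to 3 lay above all wild-type libraries and K320E-skm 4 lay within them. K320E-skm averaged 260251 ± 26160 FPKM and wild-type 218013 ± 21108 FPKM (SD, n = 4 each), and the log2 fold change was 0.26 (SE 0.27; limma adjusted p = 0.668). mt-Rnr1, the small ribosomal RNA (chrM:70-1024), was at 110859, 92883, 113737 and 76102 FPKM in K320E-skm and at 64819, 59200, 83337 and 73008 FPKM in wild-type libraries. Again only K320E-skm 4 overlapped, with a log2 fold change of 0.48 (SE 0.27; limma adjusted p = 0.443). Under quantile normalization both differences were 0, as these genes hold the top 2 places in every library. Neither rRNA passed the test over all genes.

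As a share of all FPKM in the table, the rRNAs did not overlap between the genotypes. Both genes together took 46.9, 44.2, 46.7 and 41.5% in K320E-skm 1 to 4 and 31.2, 35.4, 37.5 and 37.5% in wild-type 1 to 4, means of 44.8 ± 2.54 and 35.4 ± 2.97% (SD, n = 4 each). No test is given for this sum. Weighted by gene length, as an estimate of the share of fragments, the shares were 29.3 to 38.3% and 24.2 to 30.9%, and K320E-skm 4 then overlapped. FPKM are relative to the library, and 79.5% of all 10521 tested genes had a log2 fold change under 0. All 37 genes together took 53.8 to 59.8% of FPKM in K320E-skm and 44.0 to 56.3% in wild-type libraries, which overlapped. No source used here says whether ribosomal RNA was removed before sequencing.

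**Figure D2:**
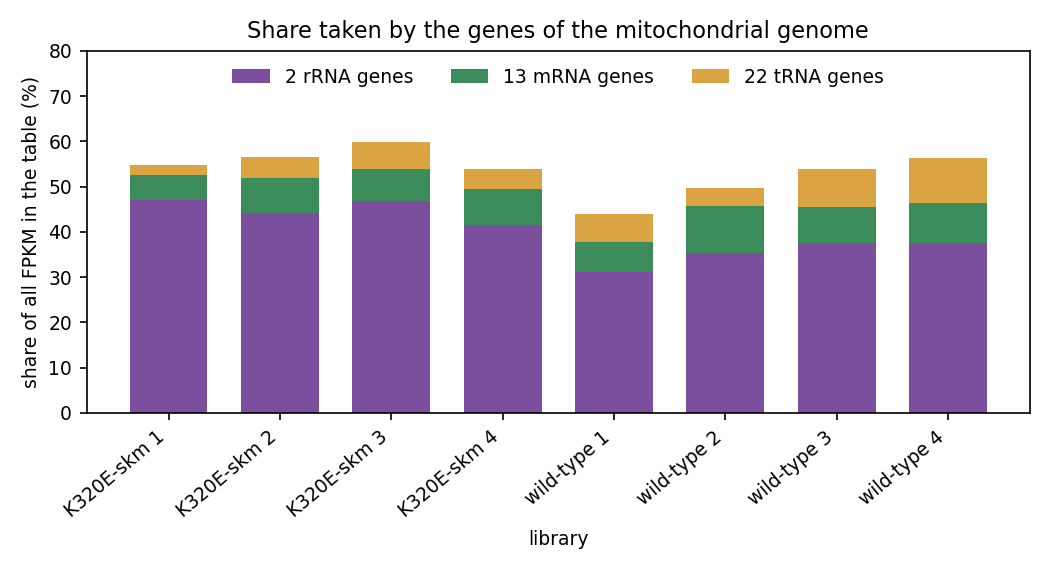
Bars give the percent of all FPKM in the table taken by the 2 rRNA, 13 mRNA and 22 tRNA genes of the mitochondrial genome, stacked, in each of 8 libraries. The rRNA part lies between 41.5 and 46.9% in K320E-skm and between 31.2 and 37.5% in wild-type libraries.

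Of the 13 mRNAs, 12 had lower fitted values in K320E-skm muscle and mt-Cytb a higher one, but none passed limma, and quantile normalization turned the sign of mt-Nd1, mt-Atp8 and mt-Nd6. Over all 37 genes, 23 passed the filter of 1 FPKM in at least 4 libraries (2 rRNA, 13 mRNA and 8 tRNA genes), and 0 of these 23 were called at an adjusted p under 0.05, where 0.019% of all tested genes were called (0.0095% higher and 0.0095% lower). At an unadjusted p under 0.05, limma gave 1 member higher and 3 lower, beside 1.12% and 12% of all tested genes. These were mt-Tl1, mt-Tq, mt-Ty and mt-Atp6, of which the 3 tRNA genes would not have passed the filter without the genotype in which they were higher. The median log2 fold change was −0.30 over the mRNAs, 0.37 over the rRNAs and −0.14 over all tested genes. Without overlap between the genotypes, 0 mRNAs were higher and 2 lower, mt-Nd4 and mt-Atp6, beside 0.333% and 9.59% of all tested genes. Rescaling the libraries to an equal sum of nuclear protein-coding genes brought the median of all genes from −0.14 to −0.00 and the share of all genes with a lower value from 79.5 to 50.9%. The members' median then moved from −0.35 to −0.18 with 18 of 23 lower, and it was −0.17 after median-ratio rescaling and −0.06 after quantile normalization. These figures include mt-Tl1, mt-Tq, mt-Ty, mt-Tn and mt-Tc. None of them would have passed the filter without the genotype in which it was higher. Under the nuclear rescaling mt-Nd1 stood at −0.076, mt-Nd2 at −0.23, mt-Co1 at −0.20, mt-Atp8 at −0.15, mt-Nd4 at −0.18 and mt-Nd5 at −0.12, mt-Cytb at 0.35, mt-Rnr1 at 0.66 and mt-Rnr2 at 0.43, so the fold changes given for single genes depend on the scale.

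**Figure D3:**
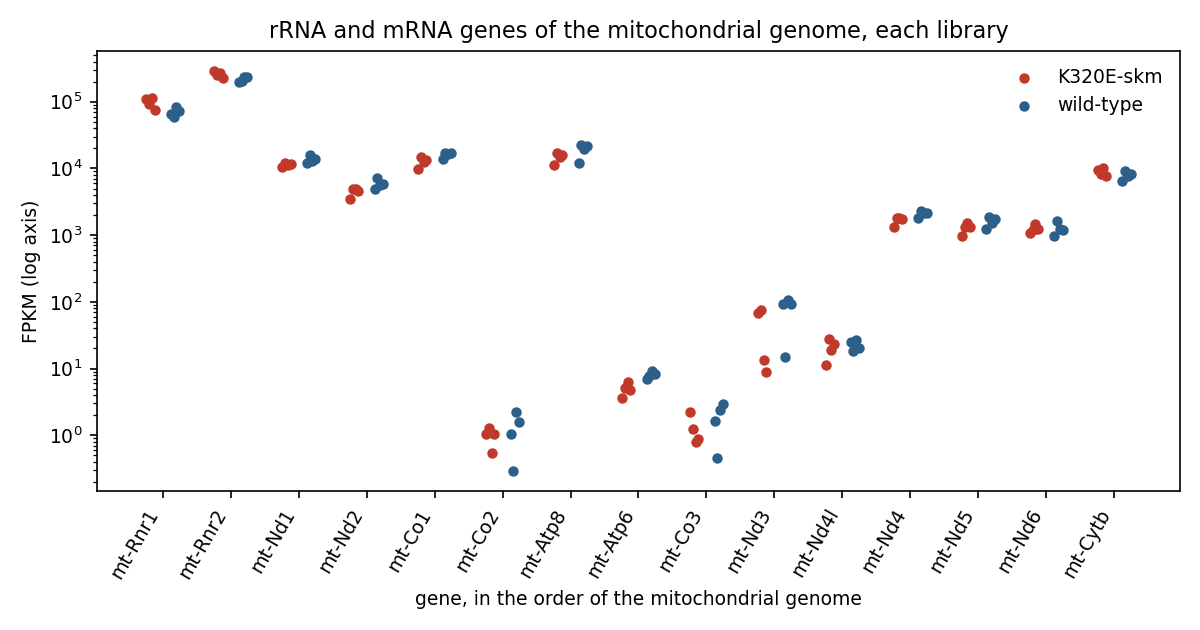
FPKM on a log axis for the 2 rRNAs and 13 mRNAs in genome order, with 1 point per library, 4 K320E-skm to the left and 4 wild-type to the right of each mark. The rRNAs are at 59200 FPKM or more, the 5 copied mRNAs reach at most 105 FPKM, and most genes overlap between the genotypes.

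Complex I has 7 of the mRNAs. mt-Nd1 (chrM:2751-3707), the first mRNA after the rRNAs, was at 10678, 12226, 11345 and 11541 FPKM in K320E-skm and at 12224, 15695, 12830 and 13939 FPKM in wild-type libraries. Only K320E-skm 2 reached the lowest wild-type library. mt-Nd2 averaged 4470 ± 676 against 5925 ± 965 FPKM (n = 4 each) and overlapped through K320E-skm 3. mt-Nd4, which forms part of the proton-pumping arm, was at 1304, 1778, 1826 and 1734 FPKM in K320E-skm and at 1837, 2297, 2123 and 2172 FPKM in wild-type libraries. All 4 K320E-skm libraries lay below all wild-type libraries, by a margin of less than 1 SD between K320E-skm 3 and wild-type 1 (log2 fold change −0.35, SE 0.17; limma adjusted p = 0.398). mt-Nd5, a further proton-pumping subunit, averaged 1291 ± 240 against 1583 ± 273 FPKM. mt-Nd6, the one mRNA of the light-strand transcript (chrM:13552-14070, − strand), averaged 1238 ± 170 against 1253 ± 265 FPKM and had a log2 fold change of −0.00 (SE 0.18). Its sign turned under rescaling, at 0.18 after median-ratio rescaling, 0.17 after scaling to nuclear genes and 0.25 after quantile normalization. The copied genes mt-Nd3 and mt-Nd4l averaged 41.7 ± 35.5 against 76.4 ± 41.5 and 20.4 ± 6.94 against 22.8 ± 3.81 FPKM, and both overlapped. mt-Nd3 was split within each genotype: K320E-skm 3 and 4 and wild-type 2 were at 8.83 to 14.8 FPKM and the other 5 libraries at 67.7 to 105 FPKM.

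mt-Cytb (chrM:14145-15288), which encodes cytochrome b of complex III and is the last mRNA of the heavy-strand transcript, had the one higher fitted value. It was at 9335, 8378, 9998 and 7821 FPKM in K320E-skm and at 6489, 8996, 7689 and 8300 FPKM in wild-type libraries, with overlap (log2 fold change 0.18, SE 0.19; limma adjusted p = 0.675). As a share of mRNA FPKM it took 19.5, 13.7, 17.0 and 13.6% in K320E-skm 1 to 4 and 12.1, 11.7, 11.4 and 11.5% in wild-type 1 to 4. No wild-type library reached any K320E-skm library, and K320E-skm 1 and 3 were the highest. The shares of the other complexes overlapped, at means of 35.8 against 36.7% for complex I, 22.3 against 24.2% for complex IV and 26.0 against 27.5% for complex V. The last of these came almost wholly from mt-Atp8, and that of complex IV from mt-Co1, and the remaining genes of both complexes are among the 5 low ones.

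In complex IV, mt-Co1, the catalytic subunit of cytochrome c oxidase (chrM:5328-6872), was at 9810, 14733, 12414 and 13550 FPKM in K320E-skm and at 13931, 17204, 16687 and 16977 FPKM in wild-type libraries. Only K320E-skm 2 lay within the wild-type range (log2 fold change −0.37, SE 0.21; limma adjusted p = 0.452). mt-Co2 and mt-Co3, both copied, averaged 0.981 ± 0.317 against 1.28 ± 0.815 and 1.29 ± 0.667 against 1.84 ± 1.06 FPKM. In the ATP synthase, mt-Atp8 averaged 14722 ± 2479 against 18795 ± 4751 FPKM. mt-Atp6, which encodes part of the proton channel and is copied, was at 3.62, 5.05, 6.24 and 4.74 FPKM in K320E-skm and at 7.03, 7.75, 9.10 and 8.15 FPKM in wild-type libraries. These did not overlap (log2 fold change −0.62, SE 0.15; limma adjusted p = 0.295), although mt-Atp6 stood at 4.91 FPKM on average in K320E-skm beside 14722 FPKM for its neighbour mt-Atp8.

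mt-Atp8 and mt-Atp6 overlap by 43 bases, which is 21.1% of mt-Atp8, and their values cannot be fully separated. mt-Nd5 and mt-Nd6 overlap by 14 bases on opposite strands. Both ends are shown on the + strand from the GENCODE M21 transcripts (GRCm38), chrM:7890-7969 for mt-Atp8 and chrM:13506-13565 for mt-Nd5, with the shared bases in capitals.
mt-Atp8: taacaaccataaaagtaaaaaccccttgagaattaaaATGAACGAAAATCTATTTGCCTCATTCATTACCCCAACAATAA
mt-Nd5: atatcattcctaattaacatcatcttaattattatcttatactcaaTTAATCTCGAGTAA

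The order of the 8 mRNAs other than the low copied ones was nearly the same in every library. Of these 8, mt-Co1 and mt-Nd4 are copied in part. mt-Atp8 stood first in 7 of 8 libraries, mt-Cytb, mt-Nd2 and mt-Nd4 held places 4, 5 and 6 in all 8, and mt-Nd5 and mt-Nd6 held the last places. Wild-type 1 alone had mt-Co1 first and mt-Atp8 at place 3. On the FPKM scale, which is per length, mt-Co1 averaged 16200 FPKM and mt-Nd5 1583 FPKM in wild-type muscle, although both lie on the same precursor. Over the wild-type libraries, neighbours in this order overlapped in level except mt-Nd1 above mt-Cytb and mt-Nd2 above mt-Nd4.

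Ratios of genes within a library do not depend on how the libraries were scaled, and 9 ratios of 2 genes were compared, each with a two-sided exact permutation test that uses all 70 ways to divide the libraries 4 against 4. The smallest p this design allows is 0.0286, and 4 of the 9 ratios reached it. After Benjamini-Hochberg adjustment over the 9, those 4 stood at 0.0643, so none passed 0.05.

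mt-Rnr2 against mt-Nd1 compares the last rRNA with the first mRNA of the heavy-strand transcript, on both sides of the tRNA gene mt-Tl1. The ratio was 27.3, 20.9, 23.5 and 19.7 in K320E-skm 1 to 4 and 15.95, 13.1, 18.6 and 16.7 in wild-type 1 to 4. Every K320E-skm library lay above every wild-type library, with means of 22.9 ± 3.33 and 16.1 ± 2.29 (SD, n = 4 each) and a 1.42-fold difference of geometric means (exact permutation p = 0.0286, adjusted 0.0643). The ratio of mt-Rnr1 to mt-Nd1 ran the same way, at 6.59 to 10.4 against 3.77 to 6.50. Summed over both rRNAs and all mRNAs, the rRNA to mRNA ratio was 8.40, 5.68, 6.48 and 5.27 in K320E-skm, against 4.85, 3.43, 4.78 and 4.26 in wild-type libraries, a 1.48-fold difference without overlap, which is given without a test. Relative to mt-Rnr2, 6 of the 13 mRNAs lay lower in K320E-skm without overlap (mt-Nd1, mt-Nd2, mt-Co1, mt-Atp6, mt-Nd4 and mt-Nd5) and 0 lay higher. Of all 10520 other tested genes, 19.7% lay lower relative to mt-Rnr2 in this way and 0.0665% higher, so many other genes also stood lower against this rRNA. Relative to mt-Nd1, both rRNAs, mt-Cytb and mt-Tl1 (which needed the K320E-skm libraries to pass the filter) lay higher without overlap, as did 1.82% of all other tested genes, and 0 members lay lower, against 0.428%.

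Within the rRNAs the ratio of mt-Rnr2 to mt-Rnr1 averaged 2.68 ± 0.272 in K320E-skm and 3.13 ± 0.261 in wild-type libraries (exact permutation p = 0.0571, n = 4 each, adjusted 0.103). The overlap came from K320E-skm 4, at 2.99, against 2.86 in the lowest wild-type library. Without that library the K320E-skm values of 2.34 to 2.75 lay below all wild-type values.

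The last mRNA against the first, mt-Cytb to mt-Nd1, was 0.874, 0.685, 0.881 and 0.678 in K320E-skm 1 to 4 and 0.531, 0.573, 0.599 and 0.595 in wild-type 1 to 4. All K320E-skm libraries were higher, and they spread more widely (SD 0.113) than wild-type libraries (SD 0.0314), in a 1.35-fold difference (exact permutation p = 0.0286, adjusted 0.0643, n = 4 each). The arcs overlapped. mt-Co1 to mt-Nd2, which lie on both sides of the light-strand origin, ran from 2.50 to 3.03 against 2.38 to 2.97 (exact permutation p = 0.629, n = 4 each). Summed over 11 mRNAs of the major arc and 2 of the minor arc, the ratio was 2.38, 2.59, 2.60 and 2.58 in K320E-skm, against 2.13, 2.37, 2.65 and 2.62 in wild-type libraries. Here the wild-type libraries covered the whole K320E-skm range. The 5 low copied mRNAs all lie in the major arc and took 0.0673 to 0.183% of mRNA FPKM in K320E-skm and 0.0542 to 0.236% in wild-type libraries. The sum thus rests almost wholly on the other 6 genes of that arc. With the copied mRNAs left out, the ratio was 2.37 to 2.59 in K320E-skm and 2.12 to 2.64 in wild-type libraries.

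Between the strands, mt-Nd6 to mt-Nd5 was 1.11, 0.882, 0.958 and 0.930 in K320E-skm 1 to 4 and 0.789, 0.867, 0.819 and 0.690 in wild-type 1 to 4. Again the genotypes did not overlap, by a gap of less than 1 SD between K320E-skm 2 and wild-type 2 (1.23-fold, exact permutation p = 0.0286, adjusted 0.0643). Set against the sum of all heavy-strand mRNAs, mt-Nd6 overlapped, at 0.0197 to 0.0257 in K320E-skm and 0.0168 to 0.0213 in wild-type libraries. The strand setting used to count fragments is unknown, and its part in these ratios was not tested.

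**Figure D4:**
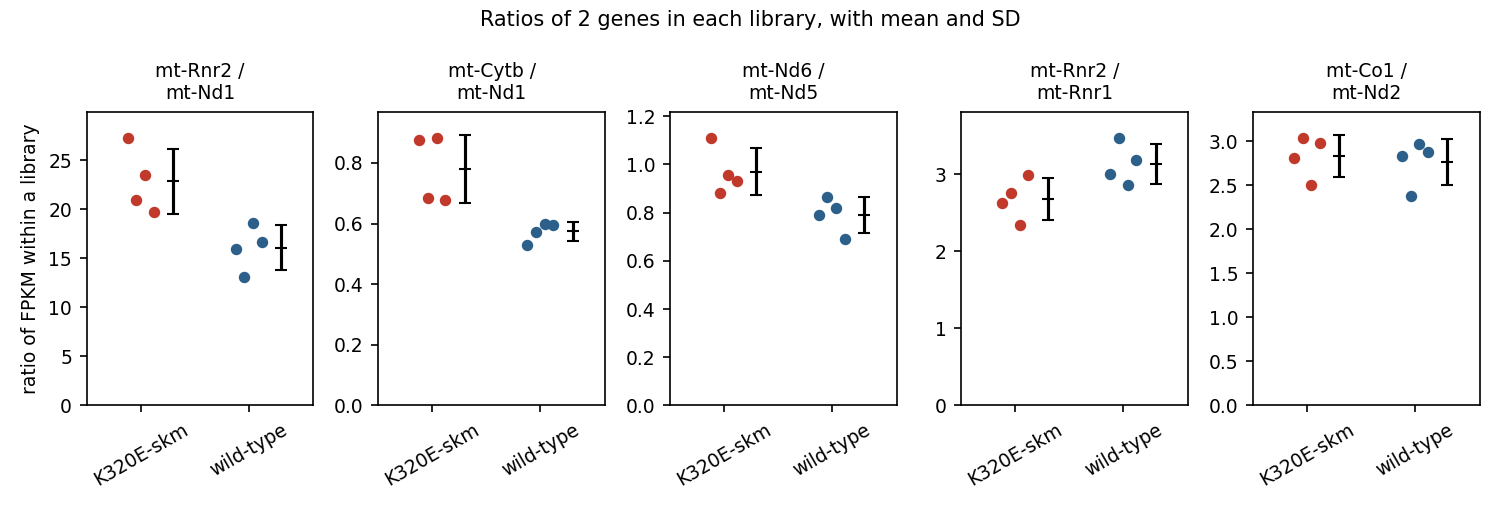
Ratios of the FPKM of 2 genes in each library (points), with the mean and SD of 4 libraries per genotype (bars), on axes that start at 0. The genotypes do not overlap for mt-Rnr2 to mt-Nd1, mt-Cytb to mt-Nd1 and mt-Nd6 to mt-Nd5, and they overlap for mt-Rnr2 to mt-Rnr1 and mt-Co1 to mt-Nd2.

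Mitochondrial mRNAs were also set against nuclear subunits of the same complexes. mt-Cytb to Uqcrc2, a nuclear core subunit of complex III, ran from 45.7 to 67.3 in K320E-skm and from 38.7 to 56.0 in wild-type libraries, with overlap (exact permutation p = 0.143, adjusted 0.161, n = 4 each). mt-Atp6 to Atp5b, the catalytic subunit of the ATP synthase, was lower in all 4 K320E-skm libraries (0.00612 ± 0.000896 against 0.00990 ± 0.00126, exact permutation p = 0.0286, adjusted 0.0643, n = 4 each), and mt-Atp8 to mt-Atp6 overlapped (2418 to 3352 against 1690 to 2867, exact permutation p = 0.114, adjusted 0.147). Both rest on the low values of mt-Atp6. Over all mRNAs, the ratio of the 13 mitochondrial to 74 nuclear respiratory chain genes was 2.83 to 3.44 in K320E-skm and 2.81 to 5.34 in wild-type libraries, where wild-type 2 was the highest. As a share of all protein-coding FPKM, the 13 mRNAs took 18.5, 22.6, 23.3 and 21.4% in K320E-skm, against 17.2, 25.4, 23.3 and 24.0% in wild-type libraries, which overlapped. Both this share and the ratio before it rest almost wholly on 8 of the 13. The 5 low copied mRNAs took between 0.0542 and 0.236% of mRNA FPKM. The 74 nuclear genes themselves split evenly, 36 with higher and 38 with lower fitted values, with a median log2 fold change of −0.01 and none called by limma. Over all tested genes 79.5% had a lower value and the median was −0.14, so this list stood higher than the table as a whole. At an unadjusted p under 0.05 limma gave 0 in either direction, beside 1.12% higher and 12% lower of all tested genes. The most abundant, Cox6a2 and Atp5b, had log2 fold changes of 0.14 and −0.03.

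Genes that make, process or degrade mitochondrial RNA were counted as the pathway around the members. Of 31 such genes 28 were tested, 0 were called in either direction, and limma at an unadjusted p under 0.05 gave 0 higher and 5 lower, beside 1.12% and 12% of all tested genes. Their median log2 fold change of −0.14 equalled that of all tested genes. The most abundant were Slirp, which stabilises mitochondrial mRNAs, at 49.6 ± 8.44 against 53.3 ± 11.2 FPKM, and Fastk, from a family of mitochondrial RNA-binding proteins, at 40.2 ± 4.86 against 38.2 ± 3.91 FPKM (SD, n = 4 each).

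The tRNA genes, of 59 to 75 bases, were read at the edge of what the data allow. All 8 light-strand tRNA genes were above 0 in at least 1 library, but only 5 of 14 heavy-strand tRNA genes were, and 9 heavy-strand genes were listed at 0 in all 8 libraries. A listed 0 may be an estimate that failed rather than an absence of fragments. In the 6 tRNA genes of 69 bases, the 28 values above 0 were whole multiples (within 0.01) of 1 step per library, which lay between 870 and 1956 FPKM. The largest value was 26 steps and the smallest 1 step. If a step is 1 fragment, these values rest on at most 26 fragments each, but a step may also stand for several. Longer tRNA genes had values below the step: mt-Tn, of 71 bases, was at 979 FPKM in K320E-skm 2, where the step was 1269 FPKM. mt-Tl1, of 75 bases, was at 451 FPKM in wild-type 3, where it was 1956 FPKM. Levels of tRNA genes of unlike length, and sums over them, may therefore not be comparable.

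The sequences of the 8 tRNAs that passed the filter are printed to show how short these genes are; all come from the GENCODE M21 transcripts (GRCm38), 5′ to 3′ as DNA, with the anticodon in capitals. mt-Tl1 (chrM:2676-2750) carries leucine and fills the whole space between mt-Rnr2 and mt-Nd1. mt-Tm carries methionine, mt-Tq glutamine, mt-Tn asparagine, mt-Tc cysteine, mt-Ty tyrosine, mt-Ts1 serine and mt-Te glutamate.
mt-Tl1: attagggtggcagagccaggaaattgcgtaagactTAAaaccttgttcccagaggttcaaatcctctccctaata
mt-Tm: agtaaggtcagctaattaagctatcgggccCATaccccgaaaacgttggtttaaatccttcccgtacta
mt-Tq: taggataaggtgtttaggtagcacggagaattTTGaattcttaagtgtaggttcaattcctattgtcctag
mt-Tn: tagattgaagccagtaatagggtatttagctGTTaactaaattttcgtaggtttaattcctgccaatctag
mt-Tc: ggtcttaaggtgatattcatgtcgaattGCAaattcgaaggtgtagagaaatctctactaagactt
mt-Ty: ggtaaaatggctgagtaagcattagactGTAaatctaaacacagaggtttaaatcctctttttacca
mt-Ts1: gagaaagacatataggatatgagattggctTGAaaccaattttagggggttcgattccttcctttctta
mt-Te: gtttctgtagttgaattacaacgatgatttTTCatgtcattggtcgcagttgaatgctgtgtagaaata

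mt-Tl1 measured 1945, 1185, 2731 and 573 FPKM over K320E-skm 1 to 4, was listed at 0 in wild-type 1, 2 and 4, and was at 451 FPKM in wild-type 3. The lowest K320E-skm library exceeded the highest wild-type library, and limma did not call it (adjusted p = 0.294). It needed the K320E-skm libraries to pass the filter, so its difference is a description and supports no direction. Without wild-type 3 it was called at an adjusted p of 1.55e-05, where the 3 wild-type libraries left are all at 0 and hold no spread. It was the one tested tRNA with a higher fitted value. It adjoins mt-Rnr2 on the same strand, and the part of fragments that reach across both genes was not tested.

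None of the other 7 tested tRNAs was called. mt-Tq and mt-Ty needed the 4 wild-type libraries, where they were higher, to pass the filter, so their values are given as a description. mt-Tn and mt-Tc, also higher there, would not have passed without the wild-type libraries either, and their values are likewise a description. mt-Tq, on the light strand, was at 0, 979, 0 and 2876 FPKM in K320E-skm and at 5725, 2639, 6018 and 6930 FPKM in wild-type libraries. Only K320E-skm 4 reached into the wild-type range. mt-Ty was listed at 0 in K320E-skm 3 and 4, at 1747 and 1650 FPKM in K320E-skm 1 and 2, and at 1617 to 4587 FPKM in wild-type libraries. mt-Tn was above 0 in 1 K320E-skm library, at 979 FPKM, and in 3 wild-type libraries, at 1979 to 4771 FPKM. mt-Tc was above 0 in 2 K320E-skm and 3 wild-type libraries, up to 1874 and 4359 FPKM.

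The 3 tRNAs above 0 in every library overlapped widely. mt-Ts1, the most abundant, was at 6778, 22844, 17179 and 12526 FPKM in K320E-skm, or 5, 18, 15 and 10 steps, and at 24818, 6092, 41081 and 33233 FPKM in wild-type libraries, or 20, 7, 21 and 26 steps. It ends 3 bases inside mt-Co1, on the opposite strand. mt-Tm, the one heavy-strand tRNA present throughout, had 3 to 9 steps in K320E-skm and 5 to 11 in wild-type libraries. mt-Te, next to mt-Nd6 on the same strand, had 1 to 10 and 2 to 11 steps. The remaining tRNA genes with any value, mt-Tv, mt-Tw, mt-Ta, mt-Th and mt-Tp, were above 0 in at most 3 libraries and were not tested. Summed over all 22 tRNA genes, the ratio to the mRNAs was 0.397 to 0.803 in K320E-skm and 0.396 to 1.13 in wild-type libraries, and that of light-strand to heavy-strand tRNA 1.92 to 6.32 against 3.68 to 6.02, both with overlap. The overlap of the second came from K320E-skm 2, as the other 3 libraries lay at 1.92 to 2.16, below all wild-type libraries. Its log2 difference was −0.76 from sums, −3.21 without overlap from mean log2 values and −0.14 with genes at 0 left out. The part of the unknown strand setting in this ratio was not tested either.

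**Figure D5:**
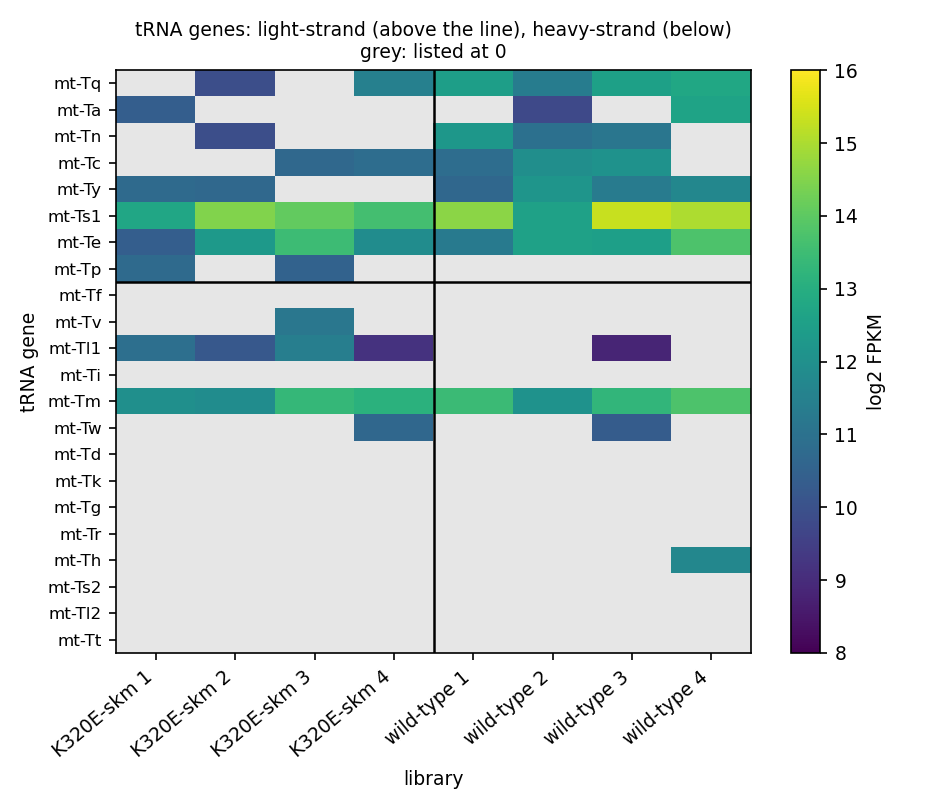
Colour gives log2 FPKM of 22 tRNA genes (rows) in 8 libraries (columns), with grey for genes listed at 0; the horizontal line parts 8 light-strand from 14 heavy-strand tRNA genes and the vertical line parts K320E-skm from wild-type libraries. Grey fills 9 heavy-strand rows, and mt-Tl1 is coloured in all K320E-skm libraries and in wild-type 3.

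Whether the genotype difference depended on the labelled sex was tested with an interaction term. No member was called by limma (smallest adjusted p = 0.999) and 0 had an unadjusted p under 0.05, where 0.019% of all tested genes were called. This term uses the label of K320E-skm 4 as given, and so does the main model. By Ddx3y, K320E-skm 1 (14.3 FPKM) was the only male library of its genotype, so the interaction cannot be read as a test of sex. Without a sex term, limma also called 0 members. Without K320E-skm 4, both rRNAs and their length-weighted share no longer overlapped and lay higher in K320E-skm, and mt-Tq lay lower. K320E-skm 4 was the only library of its genotype to overlap here, so its removal ended the overlap by construction. The share of all tested genes without overlap is not given for these libraries, and mt-Tq needed the wild-type libraries to pass the filter. The ratios rRNA to mRNA, mt-Cytb to mt-Nd1 and mt-Nd6 to mt-Nd5 then differed by 0.66, 0.49 and 0.31 (log2).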

How the data were processed

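The submitters' processing notes name mm10, Cufflinks 2.1.1, TopHat2 2.0.10 and CASAVA. The authors deposited FPKM per gene for 8 libraries, and 0 columns were left unmapped. No source used here gives the annotation, the strand setting, the treatment of fragments with several matches or any rRNA removal. GENCODE M21 (GRCm38) named 47864 of 48328 IDs.

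The main test was limma 3.58.1 under R 4.3.3 on log2(FPKM + 1), with genotype, labelled sex and a trend, on 10521 genes with 1 FPKM or more in at least 4 libraries, Benjamini-Hochberg adjusted over all. On simulated data for this comparison, on 10521 genes, 82 of 100 genes changed by 1 (log2) and 98 of 100 changed by 2 were recovered, with 8 false calls. Smaller changes were not simulated. The rRNA and mRNA differences other than that of mt-Nd3 (−1.07) were smaller than 1, so this recovery does not bear on them. Ratios used SciPy 1.17.1; 1 of the 9 is not reported here, and a further planned ratio is not analysed here. Nuclear copies were planned from a genome and found instead with BLAST 2.17.0 among GENCODE transcripts (95% identity, 200 bases, 80% of the copy); 11 matched. Each library carries its own number and labelled sex; the labels do not state outright that each is a separate animal. rRNA and mRNA genes were all named, tRNA genes where they passed the filter and otherwise by count, nuclear copies where a library reached 1 FPKM, and of other lists the 2 with the highest mean; tRNA genes not tested are named too, chosen after their values were seen. Members, lists and tests were chosen with earlier results of these data known. Alternatives were other pseudocounts, filters, scalings and models, group means of log values, leaving out genes at 0 or each library, and adding nuclear copies. Leaving out copied mRNAs, and the rRNA share by length, were added after seeing the data.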

Additional observations from a re-analysis of the deposited data

Results flagged for a closer look

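Of 125 sets of 4 values examined, 14 held a library far from the other 3, where chance gives about 1 in 20. Of these, 7 were tRNA genes above 0 in a single library of a genotype: mt-Tv at 2291 FPKM in K320E-skm 3, mt-Tl1 at 451 in wild-type 3, mt-Tw at 1637 in K320E-skm 4 and 1272 in wild-type 3, mt-Ta at 1356 in K320E-skm 1, mt-Tn at 979 in K320E-skm 2, and mt-Th at 3315 in wild-type 4. mt-Ta was also apart at 6391 FPKM in wild-type 4, where the others reached 870. mt-Co1 in wild-type 1 was at 13930 FPKM, below 16690 to 17200 in the others. mt-Nd3 in wild-type 2 was at 14.8 FPKM, below 91.8 to 105. The light-strand to heavy-strand tRNA ratio was 6.32 in K320E-skm 2, against 1.92 to 2.16. The ratio of major to minor arc mRNA was 2.38 in K320E-skm 1, against 2.58 to 2.60. In wild-type 1, complex V took 22.2% of mRNA FPKM and mt-Atp8 alone 22.15%, against at least 28.8% in the others. The rate of 1 in 20 holds for independent sets of continuous values. The 7 sets with 3 values at 0 meet the rule by construction, and complex V and mt-Atp8 are nearly the same values. The count of 14 can therefore not be compared with that rate.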

How the results depend on the processing

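The count of members called by limma stayed at 0 in each alternative except without wild-type 3, which gave 1, so leaving out 1 library gave 0 to 1. Of the log2 fold changes of single members under alternatives, 369 kept direction and side of the threshold. For mt-Nd6 the sign turned with median-ratio rescaling (0.18), nuclear rescaling (0.17), quantile normalization (0.25) and without K320E-skm 1 (0.025), K320E-skm 2 (0.070), wild-type 2 (0.095) or wild-type 3 (0.054), within −0.088 to 0.095 over all such omissions. Quantile normalization also turned mt-Nd1 (0.036) and mt-Atp8 (0.13), and set both rRNAs to 0, since they hold the top places of every library. Without single libraries, mt-Nd4l ran from −0.39 to 0.077 (turned without K320E-skm 1), mt-Co2 from −0.38 to 0.024 (turned without wild-type 3, 0.023, or wild-type 4) and mt-Co3 from −0.55 to 0.024 (turned without wild-type 4). The cause was not tested.

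Leaving out 1 library, the log2 difference ran from 0.41 to 0.58 for mt-Rnr2 to mt-Nd1, 0.37 to 0.49 for mt-Cytb to mt-Nd1, 0.23 to 0.34 for mt-Nd6 to mt-Nd5, and 0.43 to 0.66 for rRNA to mRNA; the smallest p of 3 against 4 is 0.0571, so no call can follow. The light-strand to heavy-strand tRNA difference moved from −0.76 to −3.21 with mean log2 values, where the genotypes no longer overlapped, stood at −0.14 with genes at 0 left out, and ran from −1.16 to −0.59 without single libraries. With the replicate number as a block, limma called 0 members; the exact sign-flip test over 4 pairs gave 0.125, its smallest p, for mt-Rnr2 to mt-Nd1. After the genotype mean of each gene was subtracted, same-numbered libraries correlated at 0.0233 to 0.156 across genes. The best match was the same-numbered library for K320E-skm 1, 2 and 3 and for wild-type 1, 3 and 4, but not for K320E-skm 4 or wild-type 2. Whether the numbers mark pairs is therefore not settled, and the main test did not take them as pairs. Depth is unknown.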
